A study of Homo sapiens with 26 samples.

Results

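Transporter and ATPase pump genes were taken from lists of RNAs called as associated with EZH2, which carries the methyltransferase activity of the chromatin complex PRC2. A gene was counted when its symbol begins with SLC or SLCO (solute carriers), ABC with a subfamily letter from A to G (ATP-binding cassette proteins) or ATP (ATPase pumps and ATP synthase subunits), each followed by a number. By this rule 110 of the 4083 gene symbols in the 6 deposited lists were members. All 110 matched the gene annotation, 105 of them under their current symbol. USMG5 and PQLC1 are listed under names that the rule does not catch, although their current symbols ATP5MK and SLC66A2 would fit it. They were not counted as members.

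The series labels 26 libraries in 15 groups, and its title names mispriming in reverse transcription, in which a primer copies RNA from a place other than its intended one. Small RNA that came down with an EZH2 antibody or with IgG, and small RNA of the input, was sequenced in untreated K562 cells, a chronic myeloid leukaemia line (3 libraries), and in the untreated glioblastoma lines T98G and U87MG (6 libraries each). T98G also gave 6 libraries of long RNA with the same 3 arms and 1 iCLIP library, in which RNA is crosslinked to EZH2 before the precipitation. U87MG cells received siRNA against EZH2 (2 libraries) or against GFP (2 libraries), with no dose or time in the labels. The treatment label of siEZH2 replicate 2 names EZH3, and its title, which names EZH2, was followed. Each line is a single cancer cell line. The lists hold calls without counts for single libraries, so read depth is unknown, replicate errors could not be computed and no test between groups could be made. Intervals are 95% Wilson intervals and cover counting error over genes, exons or peaks only.

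Solute carriers move amino acids, sugars, ions, metals, nucleotide sugars and metabolites across membranes, driven by gradients rather than by ATP. ABC transporters and P-type ATPases spend ATP directly: P-type cation pumps set the sodium, potassium and calcium gradients, and the P4 group, the flippases, moves phospholipids between the leaflets of a membrane. V-type pumps acidify lysosomes and other compartments, and the F-type ATP synthase makes ATP in mitochondria. Many of the pump subunits are expressed in nearly every cell, whereas many solute carriers are tissue-specific. In glial tumours the cystine carrier SLC7A11 with its partner SLC3A2 is known for supplying cystine for glutathione synthesis.

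The sequences that the results on T98G turn on are the bases downstream of the called peaks, because the kit named in the labels ligates an adapter to the RNA and starts reverse transcription from a primer that anneals to it. An RNA that itself carries the first bases of that adapter can be paired by the end of the primer. The adapter begins AGATCGG; this start and the next 6 bases come from general knowledge of the kit and not from the labels. Each line below holds the 30 bases that follow the middle of a T98G peak, 5′ to 3′ on the RNA strand, read from the GRCh37 genome. Capitals mark bases equal to the first 13 adapter bases at the best of 5 starts, from base 11 to base 15 after the peak middle. The first 8 are all the peaks of these genes with an exact adapter start of 5 bases or more.
ABCC4 exon 12, chr13:95830285-95830314, minus strand: ctgtgataggAGATCGGggaAcCacgctga
ATP11B exon 6, chr3:182554184-182554213, plus strand: cttctgtcctcAGATCGactGgatggttcc
ATP9A exon 12, chr20:50287752-50287781, minus strand: ggacatgggcaAGATCGtgtacagctgggt
SLC3A2 exon 2, chr11:62649463-62649492, plus strand: gacttgctgcAGATCGaccccaattttggc
ABCA5 exon 22, chr17:67266762-67266791, minus strand: ctgaaaccatccAGATCtGgAGtaCcccat
ATP11A exon 17, chr13:113496651-113496680, plus strand: caaagttgaccAGATCcGAgccagagtgga
ATP2A2 exon 13, chr12:110777383-110777412, plus strand: gtcaaacagaAGATCatgtctGtcattcga
SLC4A7 exon 11, chr3:27460036-27460065, minus strand: atgaatttttAGATCaagtaActgtcctac

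In this set ABCC4 exon 12 had the longest exact start, the 7 bases AGATCGG, and it was called in K562 as well. ATP11B, ATP9A and SLC3A2 had 6 bases, and the other 4 had 5. All 8 windows lie in coding sequence. The next set shows some, not all, of the peaks without AGATC that matched 9 or more of the 13 bases with mismatches. In these much of the match lies after the first bases. The set was chosen after the windows had been seen.
ATP6V0E1 exon 3, chr5:172447480-172447509, plus strand: gaatgcaaacacGATCtGAAGAGCagaaat
ABCC4 exon 6, chr13:95861761-95861790, minus strand: tactctggatggAGATaGGAAtAtCgtgcc
ATP7A exon 2, chrX:77227214-77227243, plus strand: attgagcagcAGATtGGAAaAGtgaatggt
ATP13A3 exon 3, chr3:194182889-194182918, minus strand: tggacagggaAGAaaGGAAGAcCatcaatc
ATP13A3 exon 24, chr3:194151697-194151726, minus strand: cccgtatggcacctGATCaGAAGAcacagt
ATP9A exon 25, chr20:50225088-50225117, minus strand: caaagatgtcAaATCGGAAGttgccatgct
SLC38A1 exon 8, chr12:46600940-46600969, minus strand: aagtttctaatggGAaaGGAAGAGacattt
SLC7A11 exon 2, chr4:139157468-139157497, minus strand: tggaactcctcataAtAcgGtAAGAGCata
Here ATP6V0E1 matched 11 of 13 bases, the highest value among these genes. ABCC4 exon 6, ATP7A exon 2 and ATP13A3 exon 3 matched 10, and the rest of the set matched 9. The last 11 bases of the SLC7A11 window lie past the exon's end and are intronic genome sequence, and most of its matched bases lie in that stretch. Windows that run past an exon's end, as that of ABCC4 exon 4 does by 9 bases, are kept in the counts below. The ATP6V0E1 window lies outside the gene's canonical transcript. Among the peaks not shown, SLC25A36 exon 5 and SLC2A11 exon 6 also matched 10 bases. Their windows lie outside the canonical transcript as well.

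A peak at the other end of the range, chosen for its low match, is shown for contrast.
SLC38A2 exon 6, chr12:46760880-46760909, minus strand: tagttggaaagcttgCaGcAtctggatcaa
SLC38A2, a neutral amino acid carrier, matched 3 of 13 bases.

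The adapter start was common downstream of the peaks of transporter and pump exons, as it was downstream of T98G peaks at large. A peak middle on a whole base boundary could be placed for 51 of their 52 T98G exons; SLC35B3 was left out. AGAT began 11 to 15 bases downstream in 16 of the 51 (31.4%, interval 20.3 to 45.0) and in the window 20 bases further in 1 (1.96%). Over all 2463 T98G peaks the shares were 25.8% in the window and 3.41% in the further window. The interval for these genes thus spans the share of all peaks and does not meet the interval of their own further window (0.347 to 10.3). The sign of the deposited distance was itself settled by the placement of this adapter start in earlier results of these data; with the opposite sign the share was 1.96%, so the position is a description and not independent support.

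Longer starts gave fewer peaks. AGATC was present in 8 of 51 peaks (15.7%, interval 8.17 to 28.0), against 13.4% of all peaks, and in the further window in 0 of 51 (upper bound 7.0%), against 0.853% of all peaks. AGATCG was present in 4 (7.84%), against 4.59% of all peaks, and AGATCGG in 1 (1.96%), against 2.07%. The first base of AGAT stood at base 11 in 7 peaks, at base 12 in 6, at base 13 in 2 and at base 14 in 1. The starts were thus gathered at the near end of the window.

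Allowing mismatches, at least 8 of the first 13 adapter bases were matched in 23 of 51 peaks (45.1%, interval 32.3 to 58.6) and in 0 further windows (upper bound 7.0%). Over all T98G peaks the shares were 33.7% and 3.29%. This measure was chosen after the windows had been seen. The median match was 7 bases in the window and 5 in the further window, both for these genes and for all peaks. At least 9 bases were matched in 17 of the 51 (33.3%, interval 22.0 to 47.0), against 17.8% of all peaks. At least 10 were matched in 6 (11.8%, interval 5.51 to 23.4), against 8.0%, and 11 in 1 (1.96%), against 1.91% of all peaks with 11 or more. Of the cuts from 8 to 11 bases, the interval lay above the share of all peaks at 9 alone.

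Many of these matches did not need AGAT. Of the 35 peaks without AGAT in the window, 16 (45.7%) still matched at least 8 of 13 bases, and 0 did so 20 bases further. Over all T98G peaks without AGAT the share was 29.6% (542 of 1828), and 3.61% in the further window. Later pieces of the adapter were also found more often at their adapter position than 20 bases further. GAAG was found at its adapter position in 17 of the 51 peaks and in 6 further windows, AGAG in 13 and 0, and GAGC in 9 and 0. The near shares of 33.3%, 25.5% and 17.6% stood beside 26.3%, 18.4% and 14.9% of all peaks, whose further windows had 4.47%, 3.57% and 2.80%. Among the other later pieces, GGAA was found in 15 peaks and 6 further windows and AAGA in 13 and 4. TCGG and CGGA were each found in 4 and 0. Over all peaks the near shares of these pieces were 19.6%, 21.7%, 7.63% and 8.49%. The pieces named are a selection, and they overlap one another in sequence. The genes with such late matches include the amino acid carrier SLC38A1, the proton pump subunit ATP6V0E1 and the sugar phosphate carrier SLC37A1, which matched 8 bases.

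**Figure D1:**
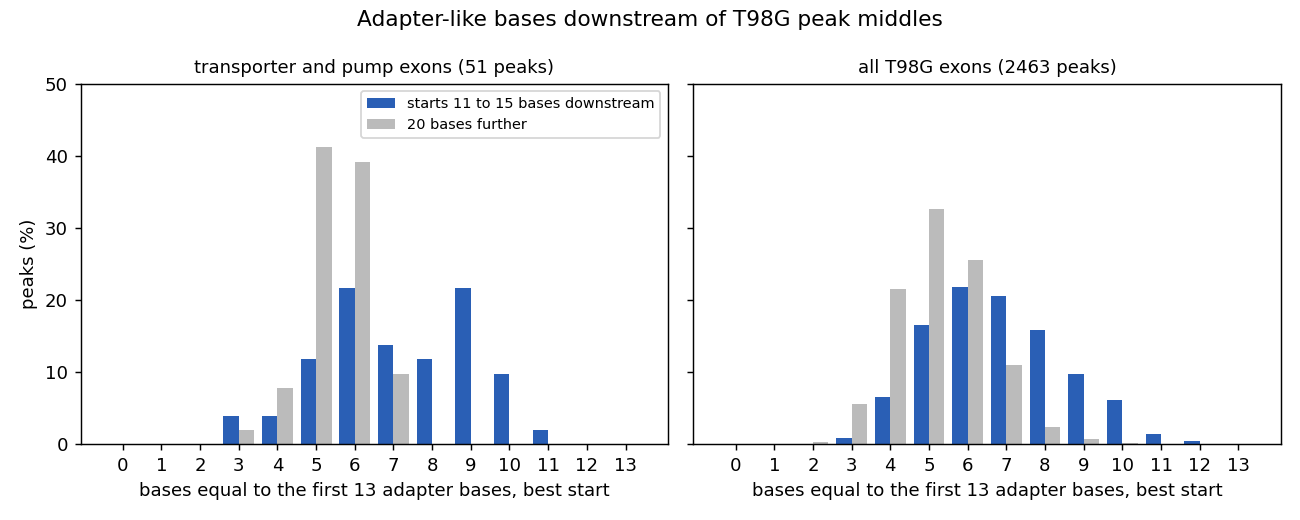
The x axis gives the number of bases equal to the first 13 adapter bases at the best of 5 starts, and the y axis the percent of T98G peaks with that number, in the window 11 to 15 bases downstream of the peak middle (blue) and 20 bases further (grey). In the 51 transporter and pump peaks (left) no further window reached 8 bases and 45.1% of the near windows did; in all 2463 peaks (right) the shares were 3.29% and 33.7%.

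Whole exons were also searched for AGATCG on both strands, with no use of a peak position, which only the T98G list gives. In T98G, 7 of 52 transporter and pump exons (13.5%, interval 6.68 to 25.3) had AGATCG on the RNA strand and 2 (3.85%) on the opposite strand. All T98G exons gave 10.6% and 2.99%. In U87MG, 2 of 12 exons had it on the RNA strand and 0 on the opposite one, against 10.8% and 1.05% of all U87MG exons. In K562 the count was 1 of 13, the ABCC4 exon printed above, and 0 on the opposite strand, against 7.81% and 1.26%. The lead of the RNA strand depended on the length of the motif. With AGATC, T98G exons of these genes had it in 30.8% on the RNA strand (interval 19.9 to 44.3) and 25% on the opposite one, against 44.6% and 29.9% of all T98G exons, so their RNA strand share lay below that of the list. In K562 3 of 13 exons had AGATC on the RNA strand and 6 on the opposite one, and in U87MG 4 of 12 and 6, so here the opposite strand led; over all exons the RNA strand led, with 39.0% against 25.4% in K562 and 41% against 26.6% in U87MG. The intervals of the 2 strands overlapped in these genes in all 3 lines, for either motif.

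The best match to the 13 adapter bases anywhere in the exon was higher on the RNA strand in 27 of 52 T98G exons and higher on the opposite strand in 7, with 18 equal. The RNA strand was higher in 7 of 13 K562 exons, against 4 with the opposite strand higher, and in 7 of 12 U87MG exons, against 1. Over all exons the RNA strand was higher in 55.0% (T98G), 51.6% (K562) and 56.7% (U87MG), and the opposite strand in 15.9%, 18.1% and 16.6%. For these genes the opposite strand was higher in 13.5%, 30.8% and 8.33%. In the K562 exon of SLC4A7, a long last exon, the opposite strand was higher, with 10 bases against 9.

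By list, the K562 small RNA list held 12 of these genes, the T98G list 39, the U87MG list 10, the full-length RNA list 34 and the retained intron list 1. The siRNA table held 41. The annotation holds 520 protein-coding genes of the same families by current symbol, of 20163 in all. Shares of the 520 thus include ATP5MK and SLC66A2, which are not members. They leave out the member ATP5SL, whose current symbol is DMAC2. Of these 520, 12 (2.31%, interval 1.32 to 3.99) were listed in K562, against 1.70% of all protein-coding genes. In T98G, 40 (7.69%, 5.70 to 10.3) were listed, against 8.95%, and in U87MG 10 (1.92%, 1.05 to 3.50), against 2.72%. The full-length list held 35 (6.73%, 4.88 to 9.22), against 4.49%. The retained intron list held 1, against 0.188%, and for the siRNA table it was 40 (7.69%, 5.70 to 10.3), against 6.60%. In the small RNA lists and the siRNA table the interval spans the share of all genes; in the full-length list it lies above it. Among genes that span at least 10 kb the full-length shares were closer, 5.91% (interval 4.06 to 8.52) against 4.78% of all such genes, and this interval spans the share.

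Most of the 110 genes, 89, were in a single list. Another 17 were in 2 lists, 3 were in 3 lists, SLC7A11 among them, and 1, SLC4A7, was in 5 of the 6. The siRNA table was the only list for 35 genes and the full-length list the only one for 24. A small RNA call in at least 1 line was made in 48 genes: 37 in 1 line, 9 in 2 lines and 2, SLC4A7 among them, in all 3. The same splits over all listed genes are not set beside these counts, which describe the members only.

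**Figure D2:**
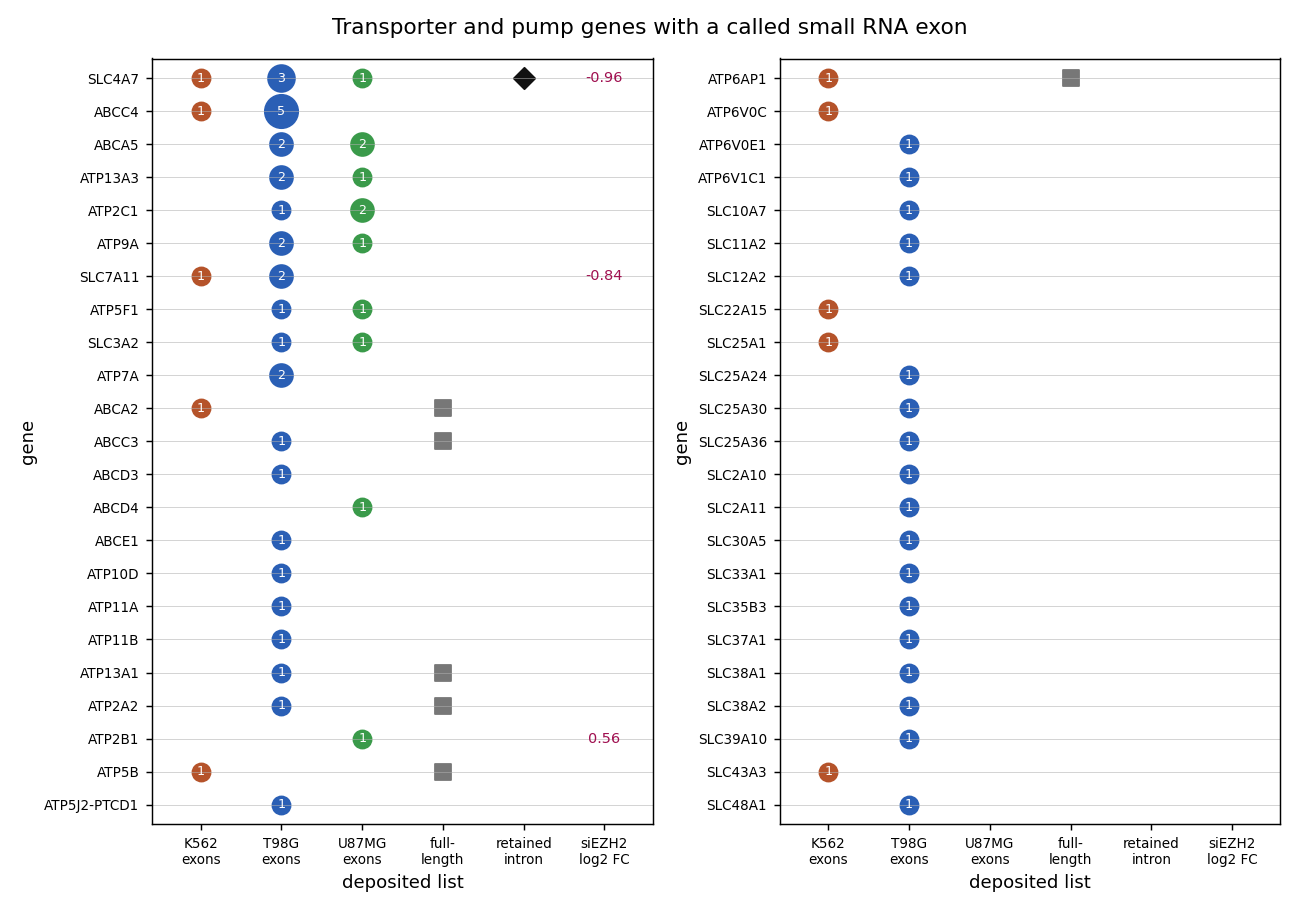
Each row is one of 46 transporter and pump genes with a called small RNA exon, of 48 in all, split over 2 panels; numbered circles give the called exons per line, squares a place in the full-length list, the diamond the retained intron and red numbers the deposited siEZH2 log2 fold change. T98G holds most circles, ABCC4 has the most exons in one line (5), and SLC4A7 is present in every column except the full-length one.

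Of all annotated protein-coding genes 10.3% had a small RNA exon in at least 1 line, and of the 520 family genes 9.42% (interval 7.20 to 12.2). The lipid and fatty acid class holds the ABCA, ABCD and ABCG transporters, the SLC27 carriers and the flippases; 11 of its 41 annotated genes were listed, 9 of them with a small RNA exon (22.0%, interval 12 to 36.7). The class was set by symbol. Its share was not restricted by gene span or exon number, and the effect of gene size was not tested. Some of the 9 have many exons, 49 in the canonical transcript of ABCA2 and 39 in that of ABCA5. The 9 include the transporters ABCA2 and ABCA5, the peroxisomal ABCD3 and its relative ABCD4, known for vitamin B12 transport. Also among them are the flippases ATP9A, ATP10D, ATP11A and ATP11B. P-type cation pumps had 4 of 20 genes listed, each with a small RNA exon (20.0%, interval 8.07 to 41.6), among them ATP2A2, the calcium pump of the endoplasmic reticulum, ATP2B1, a calcium pump of the plasma membrane, and ATP2C1, the calcium and manganese pump of the Golgi. Copper and P5 ATPases had 4 of 7 listed, 3 with small RNA exons (42.9%, interval 15.8 to 75): ATP7A, a copper pump, ATP13A1 and ATP13A3.

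Amino acid and neurotransmitter carriers had 13 of 71 annotated genes listed, 4 with a small RNA exon (5.63%, interval 2.21 to 13.6): SLC3A2, SLC7A11, SLC38A1 and SLC38A2. Carriers of inorganic ions had 10 of 67 listed, 2 with a small RNA exon (2.99%, interval 0.822 to 10.2): SLC4A7, a sodium bicarbonate cotransporter, and SLC12A2, the sodium, potassium and chloride cotransporter. Mitochondrial carriers of the SLC25 family had 12 of 49 listed and 4 with a small RNA exon (8.16%, interval 3.22 to 19.2), among them the citrate carrier SLC25A1 in K562. Metal ion carriers had 6 of 29 and 3 (SLC11A2, SLC30A5 and SLC39A10, which handle iron and zinc), sugar carriers 6 of 31 and 3, and monocarboxylate and organic ion carriers 6 of 51 and 1. V-type pump genes had 8 of 26 listed and 4 with a small RNA exon. The class of ATP synthase and associated proteins held 5 members, 3 of them with a small RNA exon. Of its 20 annotated genes by current symbol, 4 had a small RNA exon (20.0%, interval 8.07 to 41.6), with ATP5MK counted. The member ATP5SL, now DMAC2, is not among those 20. The classes differ in size and most intervals are wide, no class was tested against another, and 7 members could not be assigned to one.

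The 77 called exons of these genes joined into 65 separate regions, of which 54 were called in 1 line, 10 in 2 lines and 1 in 3 lines. Seen from U87MG, 8 of 12 exons were T98G calls too (66.7%, interval 39.1 to 86.2), against 65.0% of all U87MG exons. Seen from K562, 4 of 13 (30.8%, 12.7 to 57.6) were also called in T98G, against 45.6%, and 1 of 13 (7.69%, 1.37 to 33.3) in U87MG, against 19.9%. Each interval spans the share over all exons. Seen from the longer T98G list, 8 of 52 (15.4%) were also called in U87MG, against 16.9% of all T98G exons, and 4 of 52 (7.69%) in K562, against 7.03%. The shared exons had the same start and end in both lists in every case.

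K562 and T98G had 3 exons in common that were not called in U87MG, of which the exons of ABCC4 and SLC7A11 are described. In ABCC4, an exporter of cyclic nucleotides and drugs, this was exon 12 of 31 (chr13:95830251-95830345, minus strand, coding). In SLC7A11, the cystine and glutamate exchanger, it was exon 2 of 12 (chr4:139157479-139157605, minus strand, coding). Both genes had additional T98G exons that K562 did not share.

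T98G and U87MG shared 7 exons that were not called in K562. They are exon 22 of 39 in ABCA5 (chr17:67266754-67266891, minus strand), exon 3 of 34 in ATP13A3 (chr3:194182869-194182965, minus strand, 5′ UTR and coding), exon 4 of 28 in ATP2C1 (chr3:130650866-130650982, plus strand) and exon 6 of 7 in ATP5F1, a stalk subunit of the ATP synthase (chr1:112002079-112002258, plus strand). The others are exon 25 of 28 in ATP9A (chr20:50225057-50225165, minus strand), exon 2 of 9 in SLC3A2 (chr11:62649140-62649858, plus strand) and exon 16 of 26 in SLC4A7 (chr3:27442255-27442535, minus strand). Apart from the ATP13A3 exon they hold coding sequence and no UTR of the canonical transcript. At the T98G peaks in exons called in a second line, 6 of 11 matched at least 8 of 13 adapter bases (54.5%), against 37.6% (198 of 526) of all such T98G peaks. ATP5F1, SLC3A2 and SLC4A7 were among those below that level.

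Several T98G exons were called in 8 of the 39 listed genes, against 420 of the 2046 genes in the whole T98G list. ABCC4 had 5, exons 4, 6, 12, 13 and 27, of which 12 and 13 are neighbours. Their matches to the 13 adapter bases were 8, 10, 9, 6 and 5, so the calls within one gene covered much of the range. SLC4A7 had exons 11, 14 and 16 in T98G, each with a match of 6. A further 5 genes had 2 exons each: ABCA5, ATP13A3, ATP7A, ATP9A and SLC7A11. For ATP7A the values were 10 at exon 2 and 6 at exon 8.

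**Figure D3:**
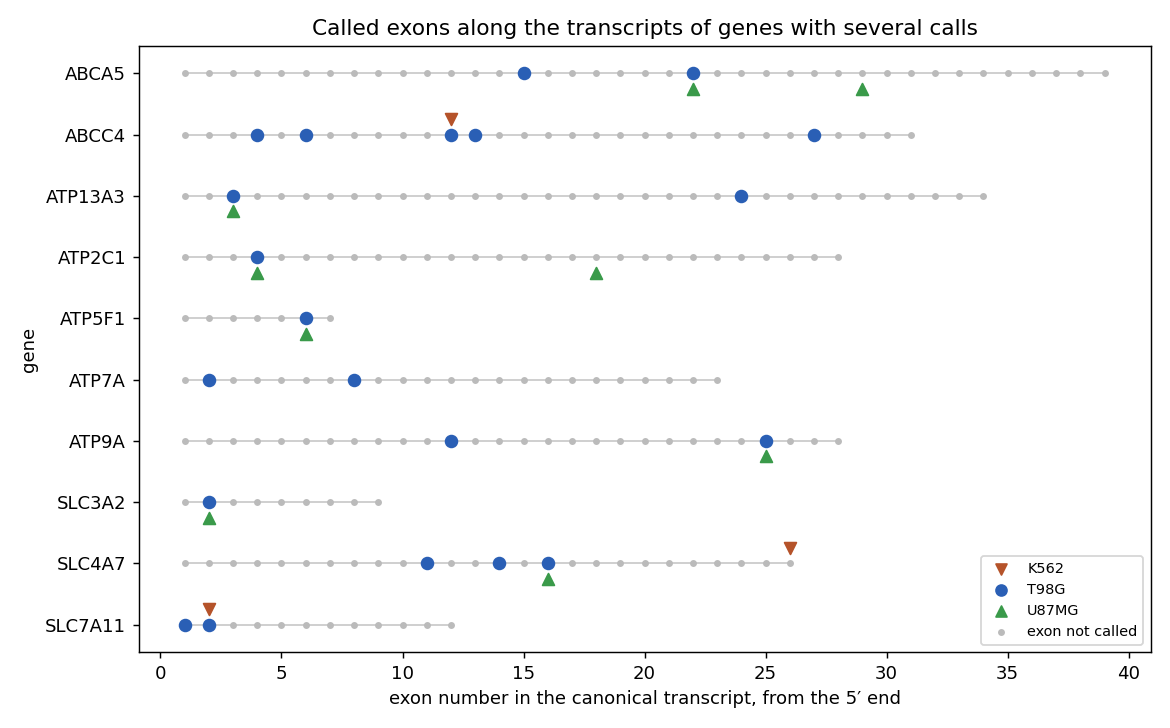
The lines are canonical transcripts of 10 genes called in 2 or more lines or with several T98G exons, with every exon as a grey dot numbered from the 5′ end and called exons as coloured marks per line. The calls lie at scattered exon numbers, and the marks of different lines stack in 9 places, at no more than 1 exon per gene.

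SLC4A7 joined the most lists but not on one exon. T98G and U87MG called exon 16, and K562 called the last exon, 26 (chr3:27414214-27418336, 4123 bp, coding and 3′ UTR). The U87MG list of retained introns held an intron of the same gene at chr3:27442534-27444631, 2098 bp long, which overlaps exon 16 by 2 bp and continues upstream of it on the RNA strand. Its deposited score was 1.09, rank 38 of 43 introns from the highest; the score is the authors' own value and its scale is not given in the sources used here. In the authors' deposited siRNA table SLC4A7 had a log2 fold change of -0.96.

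By their overlap with the canonical transcript, the called exons were mostly coding. Coding here means that a row held coding sequence and no UTR of that transcript. Such a row can also hold bases outside it, as those of SLC11A2, SLC25A36 and SLC2A11 do. In T98G 40 of 52 (76.9%) were coding, against 74.0% of all T98G exons. Another 8 held coding sequence and 3′ UTR, 3 held 5′ UTR and coding sequence, and 1, in SLC48A1, was not in the canonical transcript. In K562 8 of 13 were coding (61.5%), against 72.3% of all K562 exons, and 5 held coding sequence and 3′ UTR (38.5%), against 9.32%. In U87MG 10 of 12 were coding (83.3%), against 81.8%. Median width was 155 bp in T98G (77 to 4400), against 187 bp for all exons of the list, 159.5 bp in U87MG, against 166, and 316 bp in K562 (95 to 4123), against 188. Median GC content was 41.6% in T98G, 42.2% in U87MG and 52.3% in K562, against 44.1%, 44.5% and 44.6% of all exons. The ranges of width and GC content (29.6 to 64.0% in K562, 29.9 to 63.6% in T98G) overlapped, 4 of the 13 K562 exons are also T98G exons, and the medians were not tested against each other. Some rows are not single exons: the T98G row of ATP13A1 covers exons 20 to 26, and the row of ATP5J2-PTCD1, a readthrough gene, lies in an exon it shares with PTCD1.

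The full-length list gives whole genes whose RNA was called in T98G. Among its 34 transporter and pump genes were 6 carriers of inorganic ions (SLC4A2, SLC4A3, SLC12A4, SLC12A7, SLC26A1 and SLC26A6), which carry bicarbonate, chloride or sulfate, and 4 carriers of amino acids or related solutes (SLC1A4, SLC6A8, the creatine carrier, SLC7A5 and SLC38A10). Carriers of vitamins and choline numbered 3 (SLC5A6, SLC44A2 and SLC46A1, the folate carrier), and mitochondrial carriers also 3 (SLC25A10, SLC25A29 and SLC25A39). SLC22A18, SLCO4A1, SLC35B2 and SLC45A4 completed the carriers. The pumps included ATP2A2, ATP8B2, ATP13A1 and ATP13A2, with the ATP synthase subunits ATP5A1 and ATP5B and the proton pump accessory protein ATP6AP1. The ABC proteins were ABCA2, ABCA7, ABCB6, ABCB8, ABCC3 and ABCF3. In 6 rows the gene is joined to neighbouring names, as SLC12A4 with LCAT and ABCB6 with ATG9A, so the call cannot be given to one of them.

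Small and full-length calls met in 7 genes, ABCA2, ATP5B and ATP6AP1 through K562, ABCC3, ATP13A1 and ATP2A2 through T98G, and 1 more through both lines. Since the full-length list is from T98G, 4 of the 7 compare calls of one line. No such count over all listed genes is set beside the 7. At the level of exons, 6 of 52 T98G exons (11.5%, interval 5.40 to 23.0) lay inside a full-length target, against 12.2% of all T98G exons. This interval spans the share of the whole list.

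The siRNA table lists U87MG genes past an adjusted p of 0.05 by the authors' own DESeq2 fit, without errors. It lists 41 of these genes, 20 higher and 21 lower with siEZH2 than with siGFP (48.8% higher, interval 34.3 to 63.5). All 1342 rows of the authors' deposited table split into 49.3% higher and 50.7% lower. The median log2 fold change of the higher members was 1.00 and of the lower ones -0.84 in the authors' deposited table, against 1.01 and -0.74 for all rows. A change of at least 1 on the log2 scale in either direction was listed for 13 members, 10 higher and 3 lower, against 34.9% of all rows. Of all rows past that size 346 were higher (73.9%) and 122 lower.

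Of the 41 listed genes 6 were also in an RNA list (14.6%, interval 6.88 to 28.4), against 302 of all 1342 rows (22.5%). In the authors' deposited table ABCA7, a lipid transporter, was at -1.32, SLC4A7 at -0.96, SLC7A11 at -0.84 and ATP13A2, a lysosomal pump, at -0.78. SLC4A3, a chloride and bicarbonate exchanger, was higher at 1.16, and ATP2B1 was higher at 0.56. Thus 4 of the 6 were lower, against 73.5% of the 302 rows of the table that are also in an RNA list. Of the 6, SLC4A7, SLC7A11 and ATP2B1 were there through a small RNA exon, and ABCA7, ATP13A2 and SLC4A3 through the full-length list. Only SLC4A7 and ATP2B1 had a small RNA exon in U87MG, the line of the siRNA experiment.

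The other 35 listed genes were in no RNA list, 18 of them higher (51.4%), against 55.9% of such rows. The highest were SLC11A1, a metal ion carrier of phagocytes, at 1.63 in the authors' deposited table, SLC16A10, an aromatic amino acid carrier, at 1.57, SLC14A1, a urea carrier, at 1.45, SLC4A8 at 1.31 and ATP6V0D2 at 1.23. The lowest were SLC43A2, a carrier of neutral amino acids, at -1.41, ABCF2 at -1.14, SLC7A6 at -0.99, the mitochondrial ADP/ATP carrier SLC25A4 at -0.95 and ATP6V1A at -0.92. Both ends of the range were thus outside the RNA lists, with ABCA7 next to the lowest value.

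The directions were mixed in most classes with 2 or more listed genes. The 3 listed carriers of monocarboxylates and organic ions were all higher. All 4 nucleotide sugar carriers in the authors' deposited table, which feed glycosylation in the Golgi and endoplasmic reticulum, were lower: SLC35D1 at -0.85, SLC35A2 at -0.67, SLC35B4 at -0.62 and SLC35A4 at -0.56. Of the 6 genes of the amino acid class 4 were lower (SLC43A2, SLC7A6, SLC7A11 and SLC7A1) and 2 higher (SLC7A8 at 1.03 and SLC6A6 at 0.67 in the authors' deposited table). SLC16A10, which also carries amino acids and was higher, stands in the class of monocarboxylate carriers by its symbol. Of the 4 proton pump subunits ATP6V0D2, ATP6V1F and ATP6V1G1 were higher and ATP6V1A was lower. The mitochondrial carriers split into 2 higher and 3 lower, with the ADP/ATP carriers SLC25A5 and SLC25A4 at 0.96 and -0.95 in the authors' deposited table. The directions carry no error here, so a class with all its listed genes on one side is a description of the list.

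**Figure D4:**
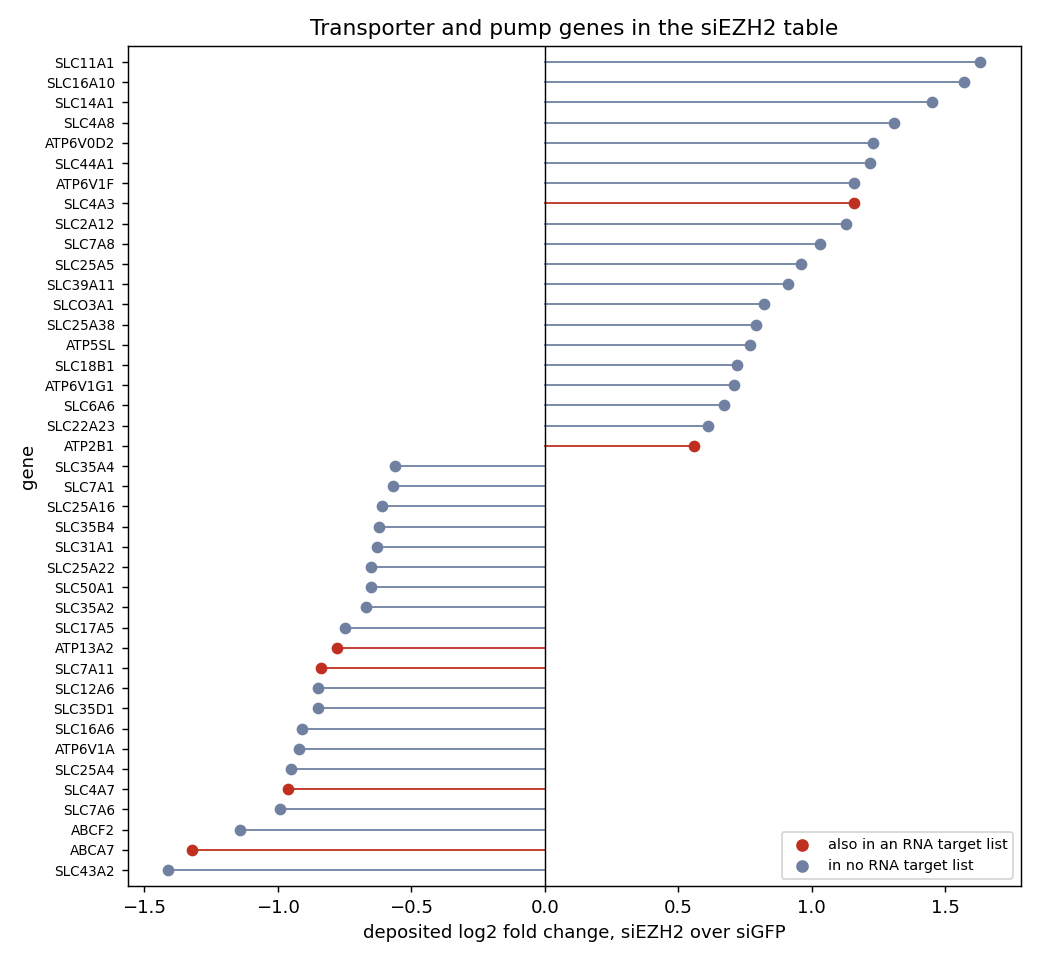
Each row is one of the 41 transporter and pump genes in the authors' deposited siRNA table, and the x axis is the deposited log2 fold change of siEZH2 over siGFP in U87MG; red marks the 6 genes that are also in an RNA list. No gene lies near 0 because only called genes are listed, and 4 of the 6 red points are on the lower side.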

How the data were processed

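The members and gene lists were chosen with earlier results of these data known. Per the labels, the authors removed adapters (cutadapt) and mapped the small RNA reads to hg19 (BWA). Exons were then called with DESeq2 on bedtools read counts and peaks with pyicoclip, per the labels. The siRNA and full-length genes were called with DESeq2 on gene counts, per the labels; the siRNA libraries were aligned without strand. The labels tie the full-length list to the iCLIP library; what the long RNA libraries added is not given in the sources used here. The siRNA table holds the authors' deposited log2 fold changes; siEZH2 over siGFP was taken as the direction from the order of names, and no row of EZH2 was there to check it. The retained intron list holds a deposited score, and the deposited score in the T98G small RNA list is a signed distance. The T98G exon middle minus this distance was taken as the peak middle, a sign settled earlier from the adapter placement in these data. The lists have 0 columns with values of one library, so no model was fitted.

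Exons were matched to GENCODE release 44 on GRCh37 (pysam 0.24.0, Python 3.11.15), coordinates are 1-based, and an overlap of 1 bp counted as shared. Exon numbers follow the canonical transcript. Motifs were searched by exact match of their letters, in the peak windows on the RNA strand and in exons on both strands; AGAT is contained in AGATC and the longer starts. Older symbols were matched by synonyms in RefSeq. Wilson intervals came from scipy 1.17.1. The search for exact adapter starts and the reading of window bases on each strand were tested on simulated data. Named genes were those called in 2 or more lines, in the full-length or retained intron list, with 2 or more T98G exons, in both the siRNA table and an RNA list, the 5 highest and 5 lowest others of that table, and peaks with an exact adapter start of 5 bases or more; further genes are named as members of a substrate class or of a count, after their values were seen. Other symbol rules, overlap rules, windows, motif lengths and fold thresholds were tried. Values of 2 members are not reported here; the counts include them.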

Additional observations from a re-analysis of the deposited data

How the results depend on the processing

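Under the alternatives, 26 recomputed values stayed within their interval or within 1.5 times of a count, and 6 moved. The 110 genes became 106 when only the first name of a row counted and 102 without ABCE, ABCF and ATP5 genes, and the exons shared between lines were the same in number at any overlap rule tried. The values that moved were these. With changes of at least 1 on the log2 scale, 76.9% of the listed members (10 of 13) were higher under siEZH2 in the authors' deposited table, against 48.8% of all 41; over all rows the share moved likewise, from 49.3% to 73.9%. The share of T98G peaks with AGAT, 31.4%, became 13.7% with base 11 as the only start, 15.7% with AGATC and 1.96% with the exon middle plus the distance; it was 45.1% with at least 8 of 13 adapter bases, a measure chosen after seeing the data. The first 2 of these 4 need a narrower match by construction, the opposite sign of the distance was the one not chosen from the adapter placement, and for the siRNA share the cause was not tested. AGATC in place of AGATCG raised the share of T98G exons from 13.5% to 30.8%, as a shorter motif must, and that of the opposite strand from 3.85% to 25%. No replicate could be left out. No paired analysis was possible because the lists carry no values for single libraries. Read depth behind the calls is unknown.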
